A study of Mus musculus with 12 samples.

Results

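The collagen genes were examined in a pair of mouse testis cell lines in which the M5 muscarinic acetylcholine receptor was targeted. A gene was taken as a collagen gene when its symbol named a collagen chain, that is Col, a type number, the letter a and a chain number. Of the 17995 genes with values, 43 met this rule, and all 12 libraries were used.

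Collagens are proteins of the extracellular matrix in which 3 chains wind into a triple helix. Fibrillar collagens such as types I, III and V build the fibrils of the interstitial matrix, type IV forms the meshwork of basement membranes, and type VI assembles into beaded filaments next to cells. In the testis, type IV collagen is a part of the basement membrane on which Sertoli cells and spermatogonia rest. Many types need more than one gene: type I usually combines Col1a1 and Col1a2 chains, type IV often Col4a1 and Col4a2, type V Col5a1 and Col5a2 with or without Col5a3, and type VI a Col6a1, a Col6a2 and a chain from Col6a3 to Col6a6.

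The RNA came from C18-4 cells, an established spermatogonial stem cell line, and TM4 cells, an established Sertoli cell line. In each line, 3 libraries came from cells given shM5 and 3 from cells given shNC. shM5 was a mixture of 3 short hairpin RNAs against Chrm5, the gene of the M5 receptor, and shNC was the control hairpin that was given to the comparison cells. The lines were grown in different media, so that line, origin and medium cannot be told apart in a comparison of C18-4 with TM4. The sources name no separate cultures behind the replicates, and the p-values therefore measure the spread between these libraries, which may be technical.

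The values were RPKM, that is read numbers scaled by gene length and library size, and a 0 was a value that rounds to 0 at 2 decimals. Depth was read from the smallest steps in value of 28 genes with 1 annotated transcript. It was about 13300000 reads per library (interquartile range 11700000 to 14300000 across these genes). Genes entered this estimate only if their values fitted 1 step shared by all libraries, within 4% plus rounding. The estimate therefore cannot show whether depth differed between libraries. Chrm5 was listed at 0 or 0.01 RPKM in all 12 libraries, shNC included, so its knockdown could not be checked at this depth. Some libraries stood apart from their group over all tested genes. TM4 shNC replicate 3 differed from the other TM4 shNC libraries by a root mean square of 0.640 and 0.642 on the log2 scale, but from the shM5 libraries by 0.202 to 0.257. In C18-4 cells, replicate 3 differed from its own group by 0.376 to 0.438 in both treatments, whereas replicates 1 and 2 differed by 0.200 and 0.201. Counts of calls are given with and without these libraries, and single genes where the call or the size of the difference changed without them.

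The labelled cell types were checked against marker genes. In C18-4 cells the germ cell genes Ddx4, Dazl, Ret and Zbtb16 were at or below 0.05 RPKM and Kit was listed at 0, whereas Uchl1 reached 76.8 to 140.02 RPKM. Wt1, a Sertoli cell gene, was at 53.93 to 72.32 RPKM in C18-4 cells but at 0.06 to 0.15 RPKM in TM4 cells. Sox9 was at 1.11 to 1.74 RPKM and Cldn11 at 0 to 0.03 RPKM in TM4 cells. Most defining markers of the labelled types were therefore at or near 0, and the lines are named here by their labels only. In bulk RNA, fewer cells of a type and less RNA per cell cannot be told apart.

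The transcription start regions of Col1a2, Col11a1 and Col6a3 are shown first, because these genes were at 0 to 0.19 RPKM in C18-4 cells and above 6 RPKM in TM4 cells. RefSeq (GRCm38.p6) gave promoter windows, from 250 bases before to 50 after a start, for 34 of the 43 members, and none was found there for Col1a1. The Col1a2 window lies at chr6:4505368-4505667 on the plus strand, that of Col11a1 at chr3:114030290-114030589 on the plus strand, and that of Col6a3 at chr1:90843922-90844221 on the minus strand. Capitals mark the letters CCAAT, searched on both strands and written ATTGG where the match is on the other strand.
Col1a2: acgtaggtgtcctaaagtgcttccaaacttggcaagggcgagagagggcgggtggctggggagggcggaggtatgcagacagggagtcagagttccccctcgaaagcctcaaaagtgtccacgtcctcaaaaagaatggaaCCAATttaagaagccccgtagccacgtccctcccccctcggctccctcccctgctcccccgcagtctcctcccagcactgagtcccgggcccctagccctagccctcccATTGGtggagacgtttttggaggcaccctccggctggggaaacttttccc
Col11a1: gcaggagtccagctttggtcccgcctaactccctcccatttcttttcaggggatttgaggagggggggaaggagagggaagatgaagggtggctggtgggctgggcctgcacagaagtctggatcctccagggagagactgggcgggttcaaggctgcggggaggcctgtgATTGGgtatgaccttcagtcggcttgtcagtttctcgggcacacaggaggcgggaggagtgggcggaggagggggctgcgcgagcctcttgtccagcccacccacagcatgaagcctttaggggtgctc
Col6a3: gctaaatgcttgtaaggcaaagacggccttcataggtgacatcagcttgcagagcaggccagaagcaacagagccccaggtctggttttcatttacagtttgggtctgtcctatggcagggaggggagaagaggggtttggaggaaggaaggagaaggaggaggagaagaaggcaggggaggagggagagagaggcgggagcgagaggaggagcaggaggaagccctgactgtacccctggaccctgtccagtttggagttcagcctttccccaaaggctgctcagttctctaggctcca
The Col1a2 window held CCAAT once on each strand, the Col11a1 window once on the reverse strand, and the Col6a3 window did not hold these letters. CCAAT occurred in 37.4% of 32817 promoter windows of this length. The CG dinucleotide occurred 13 times in the Col1a2 window, 9 times in Col11a1 and 3 times in Col6a3, against a median of 7 over all windows.

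Col4a1 and Col4a2 are neighbours that are transcribed away from each other. Their windows, at chr8:11312777-11313076 on the minus strand and chr8:11312555-11312854 on the plus strand, share 78 bases. They are shown because both genes had a positive shM5 difference in each line, with the values given further on. Capitals mark the shared stretch, which each sequence gives on its own strand.
Col4a1: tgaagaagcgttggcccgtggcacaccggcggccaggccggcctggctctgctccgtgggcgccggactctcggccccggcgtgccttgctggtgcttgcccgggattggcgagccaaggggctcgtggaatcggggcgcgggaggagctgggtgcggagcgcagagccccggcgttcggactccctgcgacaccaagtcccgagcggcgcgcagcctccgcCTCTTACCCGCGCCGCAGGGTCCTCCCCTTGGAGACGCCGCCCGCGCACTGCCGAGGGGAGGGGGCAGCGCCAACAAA
Col4a2: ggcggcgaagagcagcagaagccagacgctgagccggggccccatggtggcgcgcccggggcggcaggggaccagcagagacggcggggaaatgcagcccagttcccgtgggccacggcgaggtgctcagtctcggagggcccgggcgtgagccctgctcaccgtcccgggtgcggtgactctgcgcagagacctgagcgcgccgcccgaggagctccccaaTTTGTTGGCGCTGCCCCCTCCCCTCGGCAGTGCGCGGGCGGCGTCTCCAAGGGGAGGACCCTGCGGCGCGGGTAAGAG
The windows held 37 and 33 CG dinucleotides, and 5% of all windows held more than the Col4a1 window.

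Of the 43 collagen genes, 16 averaged 5 RPKM or more in C18-4 or TM4 cells, 5 averaged 0.5 to 5 RPKM in the higher line, and 22 averaged under 0.5 RPKM in both lines, with a highest single library of 0.76 RPKM (Col27a1 in C18-4 cells). The summed collagen level was 1238.3 ± 35.1 RPKM (SD, n = 3) in C18-4 shNC and 1317.8 ± 60.9 RPKM in C18-4 shM5 libraries. It was 1022.4 ± 199 RPKM in TM4 shNC and 1433.1 ± 197 RPKM in TM4 shM5 libraries. The TM4 shNC libraries ranged from 891 to 1251 RPKM in this sum, the highest being replicate 3, and the shM5 libraries from 1209 to 1581 RPKM, so that the groups overlapped. Fibrillar collagens made up most of the sum in every group.

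**Figure D1:**
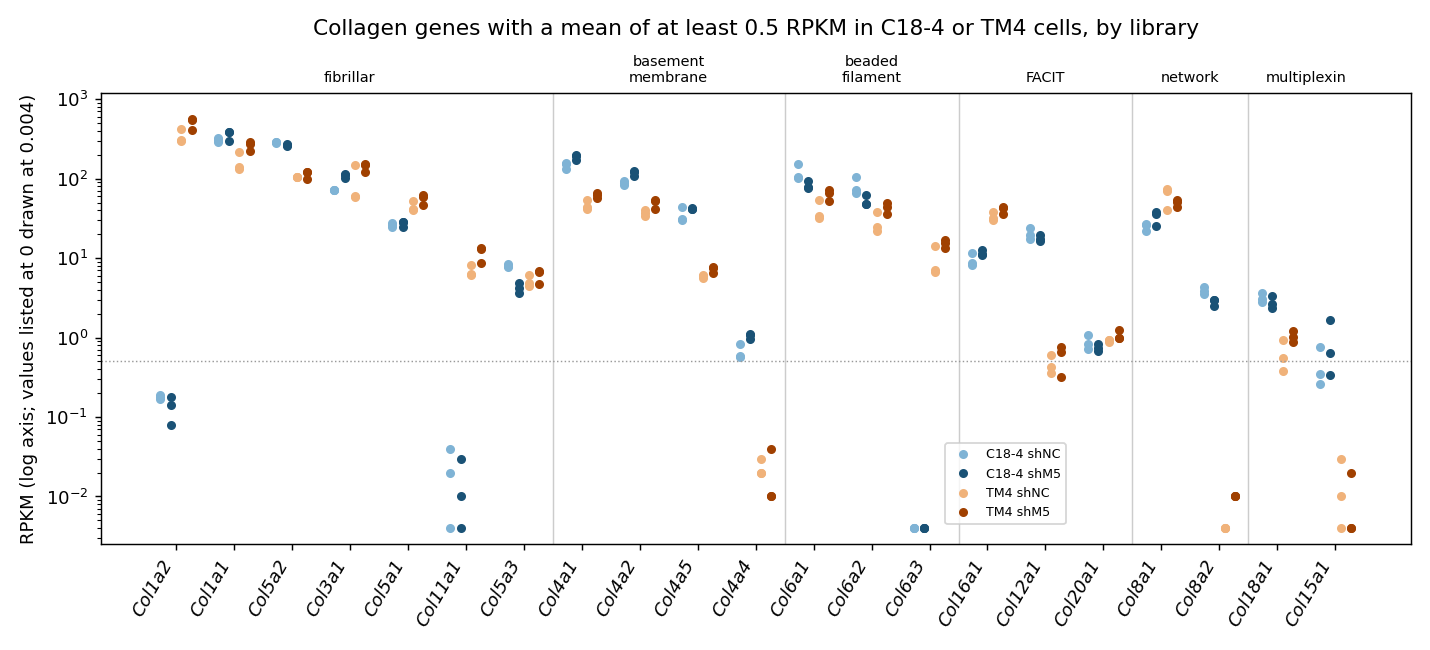
Level in RPKM on a log axis of the 21 collagen genes that averaged 0.5 RPKM or more in C18-4 or TM4 cells. Each point is 1 library, colours give line and treatment, values listed at 0 are drawn at 0.004, and the dotted line marks 0.5 RPKM. Col1a2, Col11a1 and Col6a3 sit under 0.2 RPKM in every C18-4 library and above 6 RPKM in every TM4 library, whereas the Col8a2 points lie at 2.5 RPKM or more in C18-4 and at 0.01 or 0 in TM4 cells.

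In C18-4 cells, Col3a1 was called higher and Col5a3 lower in shM5 than in shNC libraries. Of 18 collagen genes tested, 1 was called higher and 1 lower, at a Benjamini-Hochberg adjusted p below 0.05 in limma on log2(RPKM + 0.1). Over all 11611 genes tested, 0.293% were called higher and 0.293% lower. Libraries with the same replicate number deviated together in this line, replicate 3 most clearly. Replicates 1 and 2 deviated together nearly as much across numbers, so that their pairing is uncertain. With the replicate number as a block, 5 collagen genes were called higher, namely Col3a1, Col4a2, Col4a1, Col8a1 and Col1a1, and 3 lower, namely Col5a3, Col6a2 and Col6a1. The block called 5.21% of all genes higher and 6.73% lower. The block was chosen from deviations in these same values, and the sources name no pairs. The adjusted p of every C18-4 fit with the block, here and below, are therefore descriptive only. No overlap between shNC and shM5 was found for 4 members that were higher with shM5 (Col3a1, Col4a1, Col4a2 and Col4a4) and 5 that were lower (Col5a2, Col5a3, Col6a1, Col6a2 and Col8a2), against 9.3% and 9.55% of all genes. The median collagen log2 fold change was 0.12, against a median of 0.00 over all genes (-0.0024 unrounded). Without replicate 3 of either treatment, 12 of 17 tested collagen genes were called, 8 higher and 4 lower, and 3029 of all 11549 genes (26.2%). The genes called in that fit but not with the block were Col4a4, Col4a5, Col16a1 and Col5a2. Among genes it did not call, the log2 difference moved for Col8a2 to -0.29, for Col5a1 to 0.13 and for Col20a1 to -0.12. Replicate 3 was left out because it deviated in these same values. The adjusted p of C18-4 fits without replicate 3, here and below, are therefore descriptive only. Without shNC replicate 1, shNC replicate 2, shM5 replicate 1 or shM5 replicate 2, each left out alone, 0 collagen genes were called.

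In TM4 cells, 17 of 18 tested collagen genes had a positive difference of shM5 minus shNC, and Col8a1 alone had a negative one. limma called 0 of the 18 at an adjusted p below 0.05, as it did of all 11016 genes (0%). At an unadjusted p below 0.05 there were 10 collagen genes and 2866 of all genes (26%). The treatment groups did not overlap for 6 collagen genes that were higher with shM5 (Col1a1, Col4a1, Col4a2, Col4a5, Col11a1 and Col20a1) and for 0 that were lower, against 15.7% and 11.1% of all genes. The median collagen log2 difference was 0.41, against 0.04 over all genes. shM5 replicate 3 also stood somewhat apart. It differed from the other shM5 libraries by a root mean square of 0.271 and 0.265 on the log2 scale, and from shNC replicate 3 by 0.202. With shM5 replicate 3 alone left out, 0 collagen genes were called. The result turned on shNC replicate 3. Without that library, 14 of the 18 collagen genes were called, 13 higher and Col8a1 lower, in a fit that called 36.5% of 11026 genes higher and 30.9% lower. That library was singled out because its values lay near those of the shM5 libraries, so leaving it out favours calls. The adjusted p of every fit without it, here and for single genes below, are therefore descriptive only. Over 15 alternatives the limma adjusted p of each of these 14 genes had its highest value between 0.507 and 0.780.

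The effect of shM5 was compared between the lines as the C18-4 difference minus the TM4 difference, in 1 limma fit over all 12 libraries. Col1a2, Col6a3 and Col11a1 were near 0 in C18-4 cells and Col8a2 in TM4 cells, so that their value is only the effect in the other line. Of the 15 collagen genes tested in both lines, 13 had a negative value, that is a more positive shM5 difference in TM4 cells. None of the 15 was called by limma, against 0.102% of 11773 genes, and 4 had an unadjusted p below 0.05 (20.9% of all genes). Without TM4 shNC replicate 3, 7 of the 15 were called, 6 of them negative and Col8a1 positive, while 38% of 11793 genes were called in either direction. This comparison uses the same libraries as the comparisons within each line and is not independent of them.

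Between the lines, averaged over shNC and shM5, 10 of 19 tested collagen genes were called higher in C18-4 and 6 lower. The background was high, with 43.9% of 11773 genes called higher and 29.2% lower. Col3a1, Col20a1 and Col5a3 were not called. Some members passed the filter of 0.5 RPKM through 1 line only, such as Col1a2, Col6a3, Col11a1 and Col8a2, so they had to differ and their count says nothing further about collagens. No overlap between the lines was found for 8 members that were higher in C18-4 and 6 that were higher in TM4 cells (32.9% and 19.9% of all genes).

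**Figure D2:**
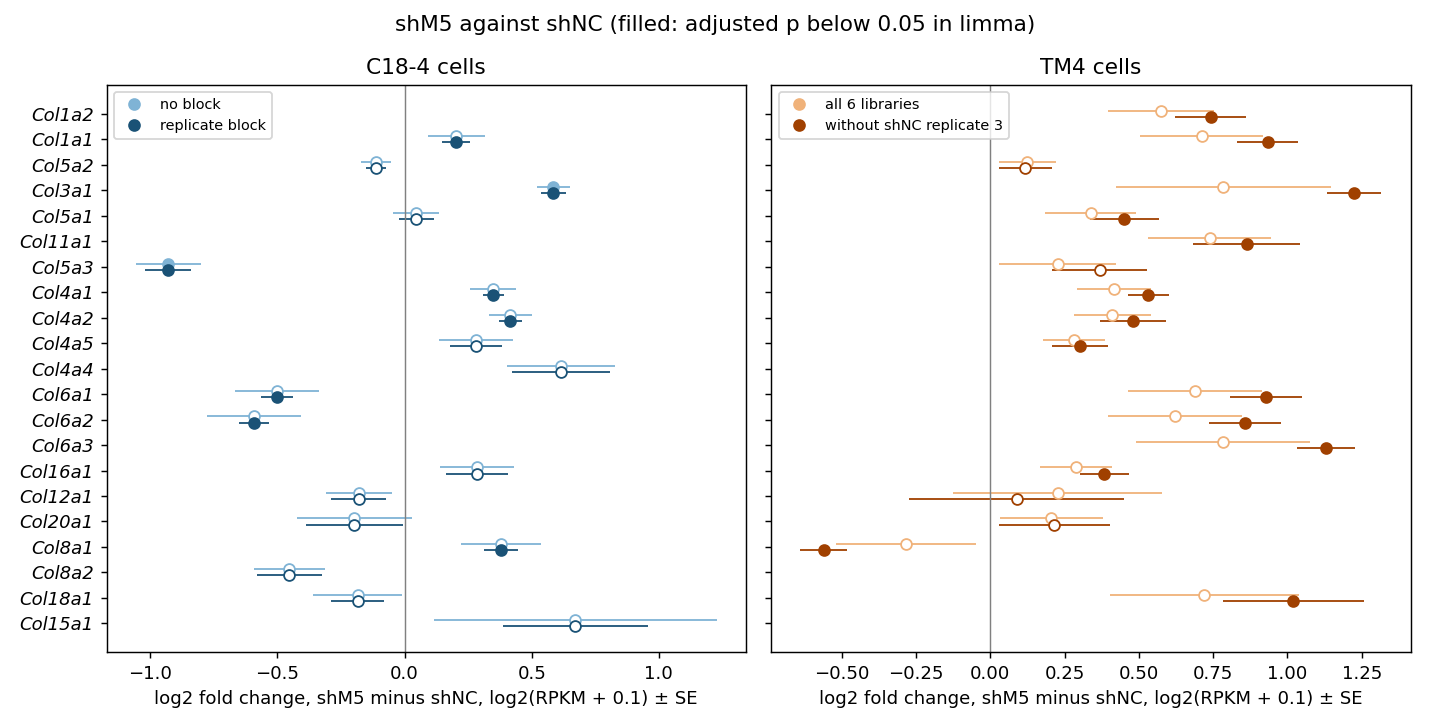
log2 fold change of shM5 against shNC ± SE in limma on log2(RPKM + 0.1), for the collagen genes tested in C18-4 (left) and TM4 cells (right). Filled points have an adjusted p below 0.05, and darker points are the fit with the replicate block on the left and the fit without shNC replicate 3 on the right. Col5a3, Col6a1 and Col6a2 lie left of 0 in C18-4 cells and right of 0 in TM4 cells. So do Col5a2, Col12a1, Col18a1 and Col20a1, which are not filled in C18-4 cells. In TM4 cells, 13 of 18 genes become filled on the right of 0 only without shNC replicate 3.

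Among the fibrillar collagens, the type I chains differed between the lines in their proportion. Col1a1, the major chain of type I collagen, was at 308, 327 and 287 RPKM in the C18-4 shNC libraries and at 386, 381 and 301 RPKM in the shM5 libraries. In TM4 cells it was at 142, 131 and 216 RPKM with shNC and at 271, 291 and 223 RPKM with shM5. In C18-4 cells shM5 replicate 3 fell within the shNC range, whereas all TM4 shM5 libraries were above the shNC libraries. The log2 fold change in C18-4 cells was 0.20 ± 0.11 (SE), with an adjusted p in limma of 0.546 without and 0.049983 with the replicate block (0.00201 to 0.969 over 15 alternatives). In TM4 cells the log2 difference was 0.71 ± 0.21 with an adjusted p of 0.192 in limma. It was 0.93 ± 0.10 without shNC replicate 3 (adjusted p = 0.000128).

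Col1a2, the partner chain, was nearly missing from C18-4 cells. Its levels were 0.17, 0.19 and 0.18 RPKM with shNC and 0.18, 0.14 and 0.08 RPKM with shM5, which at the estimated depth is about 5.7 to 13.5 reads. In TM4 cells Col1a2 was the most abundant collagen gene, at 306, 297 and 425 RPKM with shNC and at 544, 566 and 415 RPKM with shM5. The treatment groups overlapped in TM4 cells through shNC replicate 3, which was above shM5 replicate 3. The mean over all libraries of a line was 0.157 RPKM in C18-4 and 425 RPKM in TM4 cells. The shM5 difference in TM4 cells was 0.58 ± 0.18 on the log2 scale, with a limma adjusted p of 0.192, and 0.74 ± 0.12 without shNC replicate 3 (adjusted p = 0.000982). The gene was under the filter in C18-4 cells, where it was not tested.

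The ratio of Col1a1 to Col1a2 accordingly ran from 1596 to 3760 across C18-4 libraries and from 0.441 to 0.539 across TM4 libraries. Within each line the ratio stayed on 1 side of 1 in all 6 libraries. The wide range in C18-4 cells came with the few reads on Col1a2.

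**Figure D3:**
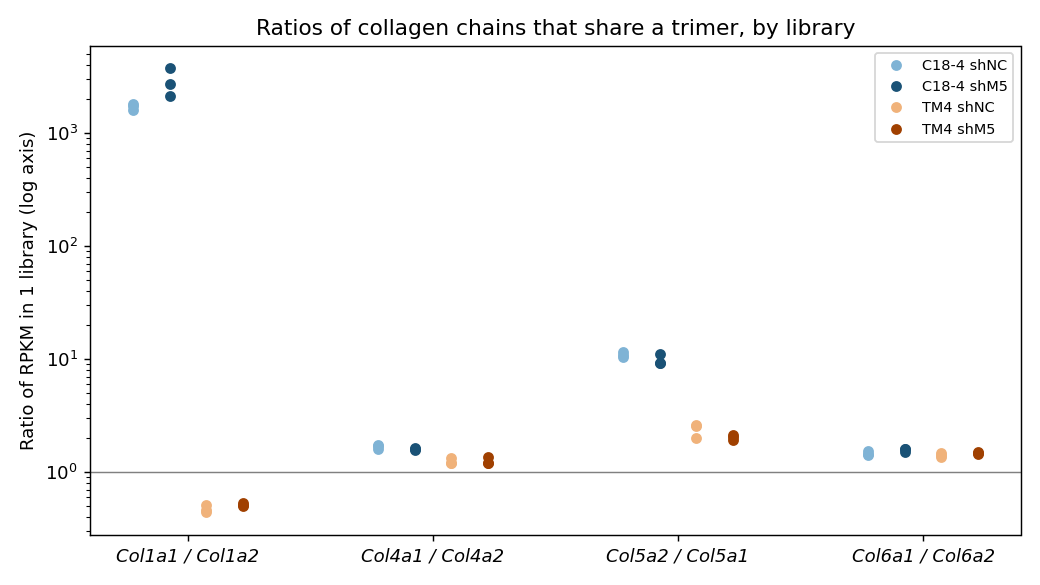
Ratio of RPKM between collagen chains that can share a trimer, on a log axis, with 1 point per library and colours for line and treatment. Col1a1 to Col1a2 lies between 1596 and 3760 in C18-4 and between 0.441 and 0.539 in TM4 libraries, whereas Col6a1 to Col6a2 lies between 1.35 and 1.61 in all 12.

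Col3a1, the chain of type III collagen, had the smallest adjusted p among the collagen genes of C18-4 cells. It was at 71.9, 72.2 and 72.4 RPKM with shNC and at 110, 113 and 103 RPKM with shM5. The shNC libraries agreed closely, and every shM5 library was above them. The log2 fold change was 0.59 ± 0.06 (SE) with an adjusted p in limma of 0.0367, and of 0.00104 with the replicate block (1.28e-05 to 0.476 over 15 alternatives). In TM4 cells Col3a1 was at 60.6, 59.1 and 150 RPKM with shNC and at 149, 152 and 122 RPKM with shM5. shNC replicate 3 lay among the shM5 libraries, and the other shNC libraries lay far under them. The log2 difference was 0.78 ± 0.36 with an adjusted p of 0.198 in limma, and 1.22 ± 0.09 without shNC replicate 3 (adjusted p = 1.8e-05). The mean level did not separate the lines, with a log2 difference of -0.27 ± 0.20 between C18-4 and TM4 (limma adjusted p = 0.231).

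The type V chains regulate the start and width of collagen fibrils. Col5a2 was at 285, 288 and 288 RPKM in C18-4 shNC and at 260, 265 and 272 RPKM in C18-4 shM5 libraries. The groups did not overlap, but the difference was small, at -0.11 ± 0.06 on the log2 scale, and was not called by limma without or with the block (adjusted p = 0.519 and 0.106, and 0.0379 without replicate 3 of either treatment to 0.948 over 15 alternatives). In TM4 cells Col5a2 was at 106, 104 and 104 RPKM with shNC and at 122, 122 and 99.4 RPKM with shM5, a log2 difference of 0.12 ± 0.10 (limma adjusted p = 0.364, and 0.264 without shNC replicate 3). Its level was higher in C18-4 than in TM4 cells by 1.34 ± 0.06 on the log2 scale (limma adjusted p = 6.4e-10). Unlike Col3a1, the neighbouring gene on the chromosome, Col5a2 in TM4 shNC replicate 3 was level with the other shNC libraries.

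Col5a1 went the other way between the lines. It was at 24.8, 27.3 and 26.4 RPKM with shNC and at 28.2, 28.6 and 24.4 RPKM with shM5 in C18-4 cells. In TM4 cells it was at 41.4, 40.0 and 51.6 RPKM with shNC and at 59.0, 63.1 and 46.4 RPKM with shM5. The line difference was -0.90 ± 0.09 (limma adjusted p = 3.3e-06), and the treatment groups overlapped in both lines. As a consequence, the ratio of Col5a2 to Col5a1 was 9.21 to 11.5 in C18-4 and 1.94 to 2.61 in TM4 libraries. The shM5 difference of Col5a1 was 0.05 ± 0.09 in C18-4 cells (limma adjusted p = 0.911). In TM4 cells it was 0.34 ± 0.15 (adjusted p = 0.194 in limma), and 0.45 ± 0.12 without shNC replicate 3 (adjusted p = 0.0101).

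Col5a3, the less common chain of type V, had the largest decrease among the tested collagen genes of C18-4 cells. It was at 7.76, 7.84 and 8.48 RPKM with shNC and at 4.16, 3.61 and 4.81 RPKM with shM5. All shM5 libraries were under all shNC libraries. The log2 fold change was -0.93 ± 0.13 (SE), with an adjusted p in limma of 0.0410, and of 0.00178 with the block (0.000144 to 0.251 over 15 alternatives). In TM4 cells Col5a3 was at 4.80, 4.39 and 6.20 RPKM with shNC and at 6.64, 6.78 and 4.69 RPKM with shM5, and the groups overlapped (0.23 ± 0.20, limma adjusted p = 0.411, and 0.37 ± 0.16 without shNC replicate 3, adjusted p = 0.0728). The difference of the shM5 effect between the lines was -1.16 ± 0.25 with a limma adjusted p of 0.112, and -1.30 ± 0.22 without TM4 shNC replicate 3 (adjusted p = 0.00145, at most 0.311 over 20 alternatives). Averaged over the treatments, the lines differed by 0.07 ± 0.12 (limma adjusted p = 0.610). This average joins opposite differences, as Col5a3 was called higher in C18-4 with shNC libraries only and lower with shM5 libraries only.

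Col11a1, a fibrillar chain best known from cartilage, was at 6.34, 6.16 and 8.13 RPKM in TM4 shNC and at 13.6, 12.9 and 8.58 RPKM in TM4 shM5 libraries. All shM5 libraries were above the shNC libraries, though shM5 replicate 3 only narrowly. The log2 difference was 0.74 ± 0.21 with an adjusted p of 0.192 in limma, and 0.86 ± 0.18 without shNC replicate 3 (adjusted p = 0.00354). In C18-4 cells the gene was at 0 to 0.04 RPKM, which is at most about 4.1 reads. The fibrillar chains Col2a1, Col11a2, Col24a1 and Col27a1 had line means of at most 0.44 RPKM, the highest being that of Col27a1 in C18-4 cells.

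**Figure D4:**
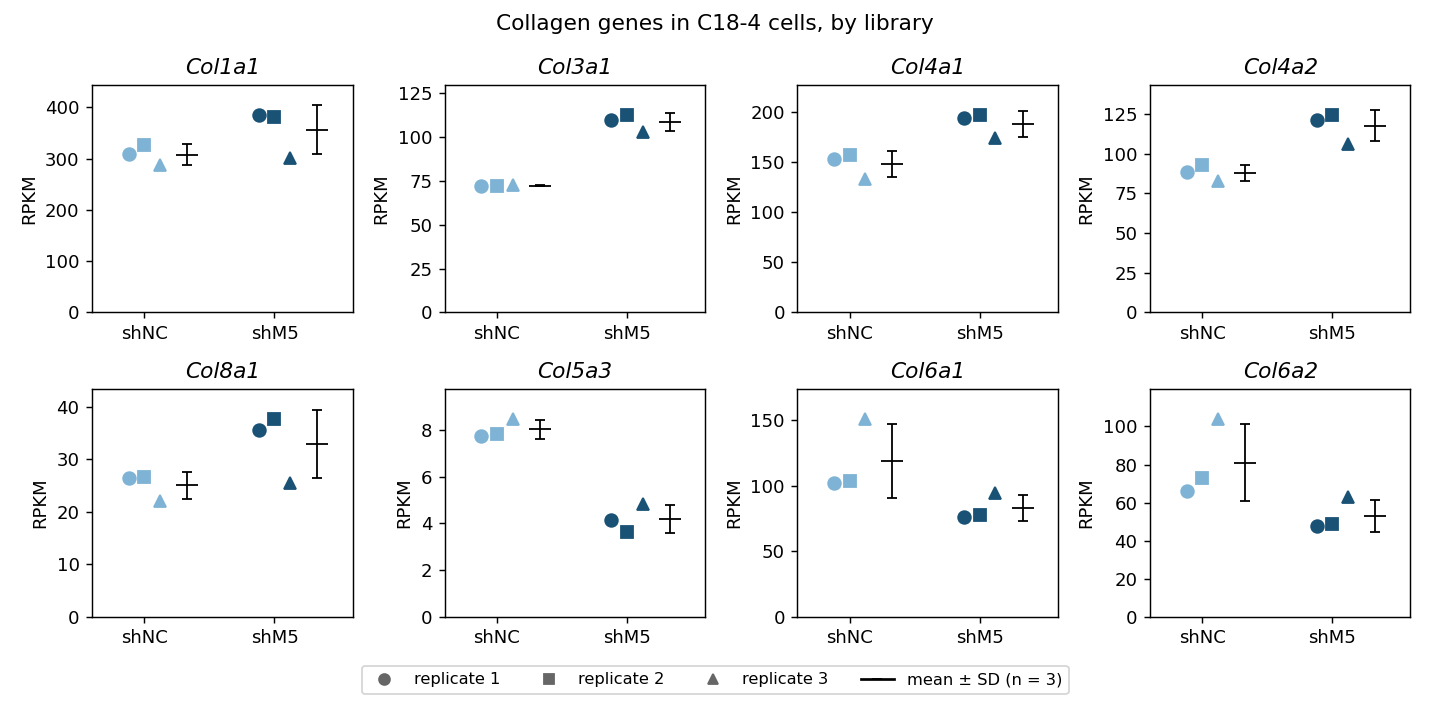
RPKM per library of the 8 collagen genes called in C18-4 cells without or with the replicate block. Symbols give the replicate number, and the bar beside each group is the mean ± SD of 3 libraries. Col1a1, Col3a1, Col4a1, Col4a2 and Col8a1 have the higher mean with shM5, Col5a3, Col6a1 and Col6a2 the lower one, and replicate 3 deviates in the same direction in both treatments for 7 of these genes but not for Col3a1.

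The basement membrane collagens of type IV were led by Col4a1 and Col4a2, the pair whose overlapping promoter windows are shown above. In C18-4 cells Col4a1 was at 154, 158 and 133 RPKM with shNC and at 194, 198 and 174 RPKM with shM5. Col4a2 was at 88.4, 92.7 and 82.8 RPKM with shNC and at 121, 125 and 106 RPKM with shM5. For both genes every shM5 library was above every shNC library. The log2 fold change of Col4a1 was 0.35 ± 0.09, with a limma adjusted p of 0.179 without and 0.00329 with the block (0.00036 to 0.652 over 15 alternatives). That of Col4a2 was 0.42 ± 0.08, with a limma adjusted p of 0.104 without and 0.00258 with the block (0.000104 to 0.499 over 15 alternatives).

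In TM4 cells both genes were lower than in C18-4 cells, and again no shM5 library overlapped with shNC. Col4a1 was at 44.1, 41.3 and 54.4 RPKM with shNC and at 63.0, 66.0 and 56.6 RPKM with shM5. Col4a2 was at 36.5, 33.8 and 40.6 RPKM with shNC and at 52.4, 54.4 and 41.4 RPKM with shM5. The log2 differences were 0.42 ± 0.12 and 0.41 ± 0.13, both with an adjusted p of 0.192 in limma. Without shNC replicate 3 they were 0.53 ± 0.07 (adjusted p = 0.000322) and 0.48 ± 0.11 (adjusted p = 0.00592). The ratio of Col4a1 to Col4a2 was 1.59 to 1.74 in C18-4 and 1.20 to 1.37 in TM4 libraries. Between the lines, Col4a1 was higher in C18-4 cells by 1.64 ± 0.08 and Col4a2 by 1.25 ± 0.08 on the log2 scale (limma adjusted p = 2.8e-09 and 4.1e-08).

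Col4a5, a type IV chain known from Alport syndrome, was at 30.0, 31.0 and 44.2 RPKM in C18-4 shNC and at 41.8, 41.9 and 42.1 RPKM in C18-4 shM5 libraries. The shM5 libraries were nearly equal, and shNC replicate 3 was above all of them. The log2 difference of 0.28 ± 0.15 was not called by limma without or with the block (adjusted p = 0.523 and 0.109, and 0.000148 to 0.915 over 15 alternatives). It was 0.46 without replicate 3 of either treatment, a fit in which it was called. In TM4 cells Col4a5 was at 5.97, 5.68 and 6.09 RPKM with shNC and at 7.76, 7.45 and 6.47 RPKM with shM5, without overlap. This difference was 0.28 ± 0.11 (limma adjusted p = 0.192), and 0.30 ± 0.09 without shNC replicate 3 (adjusted p = 0.0222). Col4a6, its neighbour in opposite orientation, stayed at 0.06 to 0.34 RPKM over all libraries, and the ratio of Col4a5 to Col4a6 was 88.1 to 182 in C18-4 and 38.8 to 99.5 in TM4 libraries. Col4a4 was at 0.66 ± 0.14 RPKM (SD, n = 3) with shNC and 1.05 ± 0.07 RPKM with shM5 in C18-4 cells, without overlap (0.61 ± 0.21 log2, limma adjusted p = 0.303, and 0.72 ± 0.21 without replicate 3 of either treatment, adjusted p = 0.0330, with 0.0330 to 0.759 over 15 alternatives), and at 0.01 to 0.04 RPKM in TM4 cells. Col4a3 was at 0.19 to 0.54 RPKM in C18-4 and at 0 to 0.02 RPKM in TM4 cells.

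Type VI collagen was the type whose main chains were called lower together in C18-4 cells in the fit with the block. Col6a1 was at 102, 103 and 151 RPKM with shNC and at 76.4, 77.9 and 94.1 RPKM with shM5. Col6a2 was at 66.1, 72.9 and 104 RPKM with shNC and at 47.9, 48.5 and 62.8 RPKM with shM5. Replicate 3 was the highest library of each group, and no shM5 library reached the shNC range. The log2 fold change of Col6a1 was -0.50 ± 0.17, with a limma adjusted p of 0.283 without and 0.00364 with the block (0.000107 to 0.759 over 15 alternatives). That of Col6a2 was -0.59 ± 0.19, with a limma adjusted p of 0.256 without and 0.00199 with the block (0.00013 to 0.743 over 15 alternatives). Without replicate 3 of either treatment the values were -0.41 and -0.53, and both genes were called.

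In TM4 cells the same genes were on the other side. Col6a1 was at 33.8, 32.4 and 54.3 RPKM with shNC and at 65.6, 72.7 and 52.4 RPKM with shM5. Col6a2 was at 24.95, 22.1 and 38.3 RPKM with shNC and at 43.6, 49.1 and 36.1 RPKM with shM5. In each case shNC replicate 3 was above shM5 replicate 3. The log2 differences were 0.69 ± 0.23 and 0.62 ± 0.22, with an adjusted p of 0.192 in limma for both. Without shNC replicate 3 they were 0.93 ± 0.12 (adjusted p = 0.000325) and 0.86 ± 0.12 (adjusted p = 0.000482). The difference of the shM5 effect between the lines was -1.19 ± 0.30 for Col6a1 and -1.21 ± 0.31 for Col6a2, with limma adjusted p of 0.142 and 0.144. Without TM4 shNC replicate 3 it was -1.43 ± 0.24 (adjusted p = 0.00135) and -1.45 ± 0.26 (adjusted p = 0.00195). Over 20 alternatives the highest adjusted p of this difference was 0.364 for Col6a1 and 0.368 for Col6a2. The ratio of Col6a1 to Col6a2 stayed at 1.42 to 1.61 in C18-4 and 1.35 to 1.51 in TM4 libraries.

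The remaining chain of type VI was found in TM4 cells. Col6a3 was listed at 0 in all 6 C18-4 libraries, and a value that rounds to 0 corresponds to at most 0.67 of a read for this long transcript. Col6a4, Col6a5 and Col6a6, which can take its place, were listed at 0 in all C18-4 libraries too. In TM4 cells Col6a3 was at 6.70, 6.98 and 14.1 RPKM with shNC and at 15.5, 16.7 and 13.3 RPKM with shM5, while Col6a4 to Col6a6 were at most at 0.04 RPKM. shNC replicate 3 again lay with the shM5 libraries. The log2 difference of Col6a3 was 0.78 ± 0.29 (limma adjusted p = 0.192), and 1.13 ± 0.10 without shNC replicate 3 (adjusted p = 3.7e-05).

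**Figure D5:**
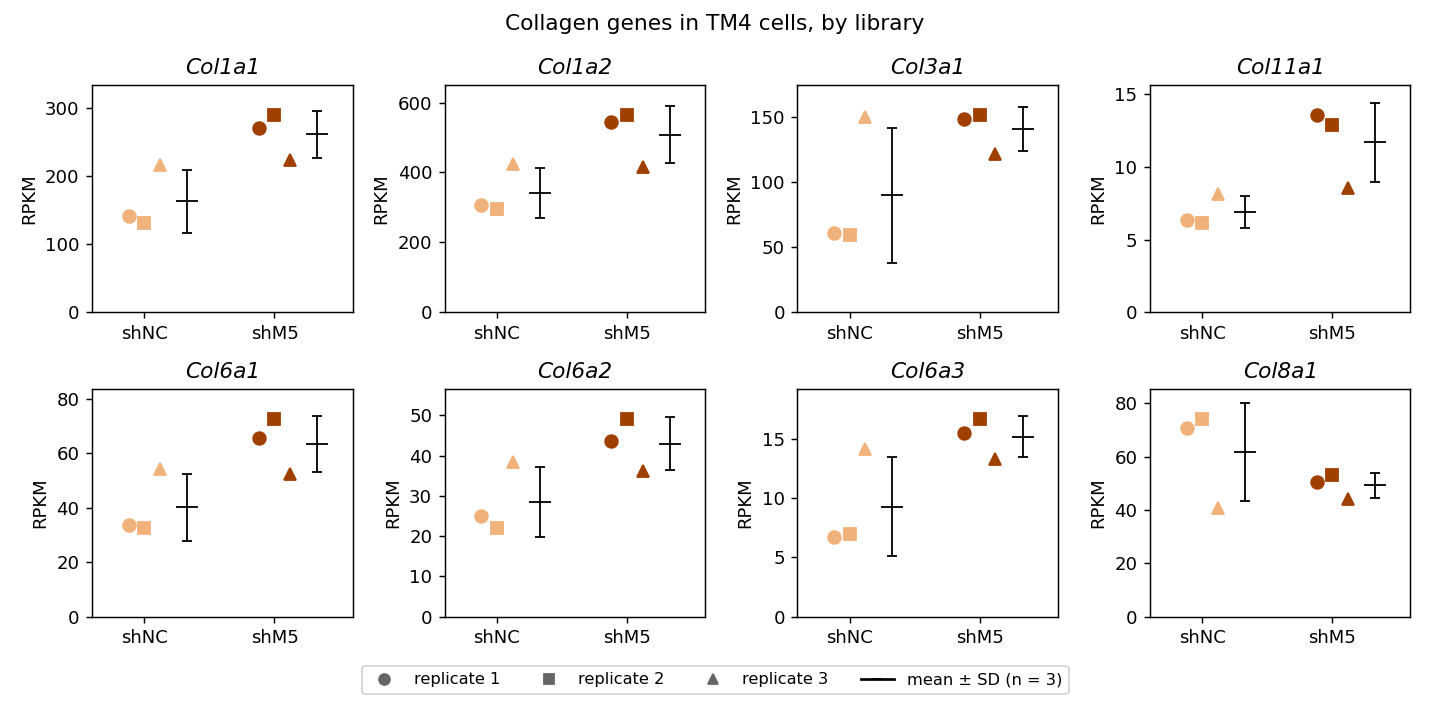
RPKM per library of 8 collagen genes in TM4 cells, with symbols for the replicate number and the mean ± SD of 3 libraries beside each group. shNC replicate 3 (triangle) lies nearer to the shM5 mean than to replicates 1 and 2 of its own group for 7 of the genes, as for Col3a1 at 150 RPKM against 60.6 and 59.1 RPKM, while for Col11a1 it lies nearer to its own group and close to shM5 replicate 3.

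Col8a1, a chain of the short, network-forming type VIII collagen, was at 26.5, 26.7 and 22.1 RPKM with shNC and at 35.6, 37.8 and 25.6 RPKM with shM5 in C18-4 cells. shM5 replicate 3 fell within the shNC range. The log2 fold change was 0.38 ± 0.16, with a limma adjusted p of 0.398 without and 0.0133 with the block (0.000221 to 0.906 over 15 alternatives). In TM4 cells Col8a1 was the member with a negative difference, at 70.8, 74.2 and 40.7 RPKM with shNC and at 50.5, 53.3 and 44.1 RPKM with shM5. shNC replicate 3 was the lowest of the 6 libraries. The log2 difference was -0.28 ± 0.24 (limma adjusted p = 0.396), and -0.56 ± 0.08 without shNC replicate 3 (adjusted p = 0.000447). Its partner Col8a2 was at 3.90 ± 0.41 RPKM (SD, n = 3) with shNC and 2.82 ± 0.28 RPKM with shM5 in C18-4 cells, without overlap but not called without or with the block (-0.45 ± 0.14, limma adjusted p = 0.248 and 0.0577, and at most 0.661 over 15 alternatives). In TM4 cells Col8a2 was listed at 0 with shNC and at 0.01 RPKM with shM5.

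Among the fibril-associated collagens, which sit on the surface of fibrils, Col12a1 and Col16a1 divided between the lines. Col12a1 was at 17.5, 19.5 and 23.8 RPKM with shNC and at 17.6, 19.3 and 16.3 RPKM with shM5 in C18-4 cells, with overlapping groups (-0.18 ± 0.13 log2, limma adjusted p = 0.668, and 0.00066 without replicate 3 of either treatment). In TM4 cells it was at 0.43, 0.61 and 0.36 RPKM with shNC and at 0.77, 0.66 and 0.32 RPKM with shM5, a log2 difference of 0.23 ± 0.35 and of 0.09 ± 0.36 without shNC replicate 3. Its level was higher in C18-4 cells by 4.97 ± 0.18 on the log2 scale (limma adjusted p = 2.1e-10). Col16a1 had the opposite order, being lower in C18-4 cells by a log2 value of -1.81 ± 0.10 (limma adjusted p = 1.0e-08).

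Col16a1 was at 8.24, 8.75 and 11.7 RPKM in C18-4 shNC and at 11.3, 12.5 and 10.8 RPKM in C18-4 shM5 libraries, where the log2 difference was 0.28 ± 0.15 (limma adjusted p = 0.516). Without replicate 3 of either treatment it was 0.48 ± 0.08 (limma adjusted p = 0.00203, with 0.00203 to 0.953 over 15 alternatives). In TM4 cells it was at 32.3, 29.9 and 38.0 RPKM with shNC and at 42.2, 43.7 and 36.4 RPKM with shM5. shNC replicate 3 was above the other shNC libraries in both lines, and it overlapped with shM5 in each. The TM4 difference was 0.29 ± 0.12 (limma adjusted p = 0.192), and 0.38 ± 0.08 without shNC replicate 3 (adjusted p = 0.00391). Col20a1 was near 1 RPKM in both lines, with group means of 0.747 to 1.07 RPKM, and was called in neither. Col9a1 and Col19a1 were listed at 0 in all 12 libraries, and Col9a2, Col9a3, Col14a1 and Col22a1 had line means of at most 0.257 RPKM.

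The multiplexins Col15a1 and Col18a1 are basement membrane zone collagens, and Col18a1 is the source of endostatin. Col18a1 was at 3.18 ± 0.43 RPKM with shNC and 2.80 ± 0.51 RPKM with shM5 in C18-4 cells (SD, n = 3), and at 0.623 ± 0.287 and 1.04 ± 0.17 RPKM in TM4 cells. It was higher in C18-4 cells by 1.79 ± 0.18 on the log2 scale (limma adjusted p = 2.8e-06), and its treatment groups overlapped in both lines. In TM4 cells without shNC replicate 3 it was called higher with shM5 by 1.02 ± 0.24 (limma adjusted p = 0.00611). Col15a1 was at 0.457 ± 0.267 RPKM with shNC and 0.873 ± 0.688 RPKM with shM5 in C18-4 cells, with replicate 3 highest in each group, and at most at 0.03 RPKM in TM4 cells. The other members were scarce, with Col7a1 of anchoring fibrils at 0.13 to 0.37 RPKM over all libraries. Col10a1, the transmembrane collagens Col17a1, Col23a1 and Col25a1, and Col26a1 and Col28a1 had line means of at most 0.135 RPKM.

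Genes that modify, fold, cleave or bind collagen were counted from a list of 38 genes with values. In C18-4 cells 30 of them were tested and 1 was called higher (0.293% of all genes), Fkbp10, an endoplasmic reticulum protein that assists collagen folding. It was at 156, 147 and 149 RPKM with shNC and at 198, 201 and 208 RPKM with shM5, a log2 fold change of 0.43 ± 0.06 (limma adjusted p = 0.0410). Every shM5 library was above the shNC libraries.

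With the block, 7 of the 30 genes were called higher and 1 lower, against 5.21% and 6.73% of all genes. The further genes were Mia3, which helps procollagen leave the endoplasmic reticulum (0.48 ± 0.06), the collagen-modifying enzymes P3h1 (0.34 ± 0.06) and Plod1 (0.29 ± 0.07), Pcolce2, an enhancer of propeptide cleavage (0.52 ± 0.08), the protease Tll1 (0.99 ± 0.17) and the integrin subunit Itgb1 (0.24 ± 0.04). The gene called lower was Creb3l1, which encodes a transcription factor that is known to promote collagen expression (-0.25 ± 0.06). Their limma adjusted p with the block lay between 0.0025 for Fkbp10 and 0.0379 for Plod1, and none but Fkbp10 was called without the block.

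In TM4 cells 31 genes of this list were tested and none was called by limma, with 26 positive differences and 10 unadjusted p below 0.05 (26% of all genes). Without shNC replicate 3, 19 were called higher and 3 lower, the latter being P3h2, Ddr2 and Tmem38b, in a fit that called 36.5% and 30.9% of all genes. The test of the difference between the lines called 0 of 33 genes, with 7 at an unadjusted p below 0.05 (20.9% of all genes). Between the lines, 13 of 33 were called higher and 17 lower in C18-4 cells, beside 43.9% and 29.2% of all genes.

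Marker lists of other cell types were summed beside the collagen values. In C18-4 cells the summed level of 5 peritubular myoid markers was 61.9 to 77.9 RPKM with shNC and 113 to 158 RPKM with shM5, and 4 of the 5 averaged 0.5 RPKM or more in each group. Acta2 and Tagln, which were called with the block but not without it, led this sum, at 15.9 to 23.7 and 36.0 to 48.8 RPKM with shNC and at 34.6 to 61.8 and 69.4 to 93.3 RPKM with shM5. The rest of the list hardly moved in C18-4 cells. Cnn1 averaged 3.33 RPKM with shNC and 3.42 RPKM with shM5, Des 5.26 and 4.99 RPKM, and Myh11 0.02 and 0.04 RPKM. In TM4 cells the same sum was 122 to 250 RPKM with shNC and 231 to 350 RPKM with shM5. The sum of 7 fibroblast markers in TM4 cells was 1269 to 2371 RPKM with shNC, the highest in replicate 3, and 2277 to 2426 RPKM with shM5, with 5 of the 7 averaging 0.5 RPKM or more and Thy1 listed at 0. Most of it came from Vim and S100a4, which averaged 784 and 818 RPKM with shNC and 1050 and 1238 RPKM with shM5. Fap was at most at 0.08 RPKM in TM4 cells. In C18-4 cells that sum was 881 to 1080 RPKM with shNC and 801 to 992 RPKM with shM5. The summed Leydig, endothelial and macrophage markers reached at most 1.58, 0.81 and 4.28 RPKM in any library. The part of these cell types in the collagen differences was not tested.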

How the data were processed

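RNA-seq libraries of C18-4 and TM4 cells, 3 shNC and 3 shM5 in each line, were compared. The authors enriched mRNA with oligo(dT), sequenced it on an Illumina HiSeq, mapped reads with SOAPaligner and computed RPKM, and the deposited RPKM of 17995 genes have 2 decimals. Genome build and annotation are not given in the sources used here.

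log2(RPKM + 0.1) was fitted with limma 3.58.1 in R 4.3.3 (eBayes with a mean-variance trend) for genes averaging 0.5 RPKM or more over the libraries of a fit, and p-values were adjusted over all genes of that fit (Benjamini-Hochberg, threshold 0.05). Fold changes on this scale understate the change of low genes. The steps were tested on simulated data. The C18-4 replicate numbers were taken as pairs, since same-numbered libraries deviated together from their group means (correlations 0.409 to 0.631 across genes). The highest was that of replicate 3. Replicate 1 of one treatment and replicate 2 of the other correlated at 0.341 and 0.345, against 0.439 and 0.409 for the same numbers. The values therefore set replicate 3 apart but do not settle how replicates 1 and 2 pair. The sources name no pairs, so that the block rests on these same values. TM4 replicate numbers were not taken as pairs (0.049 to 0.127). Every library is given for members that averaged 5 RPKM or more in either line and for members called within a line, group values or ranges for the rest. Genes of the processing list were named when called within a line. The processing genes named for the TM4 fit without shNC replicate 3, and the genes plotted for TM4 cells, were chosen after their values were seen. Members and lists were chosen with earlier results of these data known. Promoter sequences, neighbours and motif counts came from RefSeq tables (Python 3.11.15, pandas 2.3.3, numpy 2.4.6), read lengths for depth from GENCODE M21, and plots from matplotlib 3.10.9. Alternatives were pseudocounts of 1 and 0.01, no filter, median scaling, no trend, the threshold of the methods, the replicate block, single libraries left out and other choices of libraries.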

Additional observations from a re-analysis of the deposited data

How the results depend on the processing

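The number of collagen genes called in C18-4 cells was 2, and it was 0 without a filter on low values, 0 at the adjusted p and fold change thresholds of the methods, 8 with the replicate block, 12 without replicate 3 of every group and 1 with all 12 libraries in 1 fit. With single libraries left out it ranged from 0 to 3. In TM4 cells the number was 0, became 16 without replicate 3 of every group (72.7% of all genes called), and ranged from 0 to 14 with single libraries left out, the 14 arising without shNC replicate 3. For the difference of the shM5 effect between the lines it was 0, then 13 without replicate 3 of every group (59.9% of all genes called), and 0 to 11 with single libraries left out, the 11 again without TM4 shNC replicate 3 and including Col1a2, Col6a3, Col11a1 and Col8a2, each near 0 in 1 line. Between the lines it was 16 (73% of all genes called), 18 without replicate 3 of every group (86.8% of all genes called), and 16 to 17 with single libraries left out. It was 28 without a filter, in a fit that also tests collagen genes averaging under 0.5 RPKM. The 28 can therefore not be read as a rise over the 16. At the threshold of the methods, which called 26.3% of all genes, Col1a1, Col6a1, Col6a2, Col5a1 and Col8a1 were no longer called between the lines. With shM5 libraries only, Col3a1, Col5a3 and Col20a1 were called lower in C18-4 and Col4a4 higher, while Col6a2 was not called. The cause of these shifts was not tested. The replicate block gave 0 calls in TM4 cells, 0 for the difference between the lines and 16 between the lines, as without it; TM4 libraries share only a number.

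Single genes that changed sign were Col12a1 in C18-4 cells, with a log2 difference of 0.00066 without replicate 3 of every group, and Col5a3 between the lines. Col5a3 was at -0.0746 with libraries scaled to a median log2 ratio of 0, at -0.012 without replicate 3 of every group, and at -0.51 with shM5 libraries only, where it was called lower in C18-4. With shNC libraries only it was called higher in C18-4, and its highest value over 22 alternatives was 0.65. With single libraries left out it ranged from -0.012 (without TM4 shM5 replicate 3) to 0.14. Fits without 1 library of a group assume that the remaining libraries vary alike. RPKM keep no read counts, so that the depth behind values under 0.5 RPKM is only estimated.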
